A study of Rattus norvegicus with 2 samples.

Results

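Histone genes are described here in rat cortical neurons with a knockdown of Ythdf3, which encodes a reader of the m6A mark on messenger RNA. The members are all rows of the deposited gene table whose symbol is that of an H1, H2A, H2B, H3 or H4 histone gene or a macroH2A gene, 60 of 21224 rows. The series holds 1 library of embryonic day 18 (E18) cortical neurons that received a small interfering RNA against Ythdf3 (siYthdf3) and 1 library of the same kind of cells labelled siNC, by common usage a negative control small interfering RNA. The series' title links Ythdf3 knockdown to hypoxic-ischemic neuron injury, but no label names a hypoxic sample. The labels name no other treatment, strain or genotype and give neither the dose nor the time after transfection. With a single library on each side, replicate error is unknown for every difference below, and no test between the groups was possible.

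Histones package DNA into nucleosomes, in which pairs of H2A, H2B, H3 and H4 form the core and H1 binds the linker. Replication-dependent histone genes lie in clusters, are transcribed mainly in S phase, and give messenger RNAs that end in a stem loop in place of a poly(A) tail. Replacement variants such as H3.3, H2A.Z and macroH2A are encoded by genes outside these clusters, whose messenger RNAs are polyadenylated. Cells that no longer divide, such as neurons, still make these variants. H2A.X, the variant that is phosphorylated at DNA breaks, can be made from either kind of transcript, and is counted here with the replacement variants, as is H1.0, the linker histone of non-dividing cells.

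By symbol, 41 rows were replication-dependent cluster genes, 15 were replacement or other variants and 4 were pseudogenes. Reads assigned to genes numbered 22586543 in siYthdf3, against 15392218 in siNC. Levels are in FPKM, reads scaled to the length of the gene and to the library's depth, and coordinates of rows are those of the table, whose build is not named. Ythdf3 itself was at 6.93 FPKM in siYthdf3, against 9.38 FPKM in siNC, or 0.739 times as much (counting interval 0.675 to 0.809). Ratios are siYthdf3 over siNC throughout, and each counting interval is the exact Clopper-Pearson 95% interval of that ratio, which takes in counting error alone. The log2 ratio used for counts and medians adds 0.5 FPKM to both values, which understates the difference of low genes. The 10 neuron markers that were looked up were all present, between 17.0 and 263 FPKM in siYthdf3 and between 15.2 and 260 FPKM in siNC.

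Of the 60 members, 21 averaged 1 FPKM or more across the libraries, 8 cluster genes, 10 variants and 3 pseudogenes. None of the 21 was 2-fold apart, where 1.60% of all 13172 rows at that level were (0.706% higher and 0.896% lower in siYthdf3). At 1.5-fold, 4 members were lower in siYthdf3 and 1 was higher, against 3.95% and 2.41% of all rows. The 4 were H2az2, H2ax, an H4c14 row on chromosome 17 and Hist1h2anl1, and the single higher one was H1f10. Once the table's trend with gene length was removed, H2ax (-0.55) and Hist1h2anl1 (-0.52) were no longer past 1.5-fold, and with a pseudocount of 1 FPKM Hist1h2anl1 (-0.50) was not either. The median log2 ratio was -0.20 over the 10 variants and -0.03 over the 8 cluster genes, against -0.01 over all rows, where the quartiles were -0.17 and 0.14. The difference between the class medians, cluster genes minus variants, was 0.17. It was 0.09 with the length trend removed and 0.07 without rows that overlap another row, which left 2 cluster genes.

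**Figure D1:**
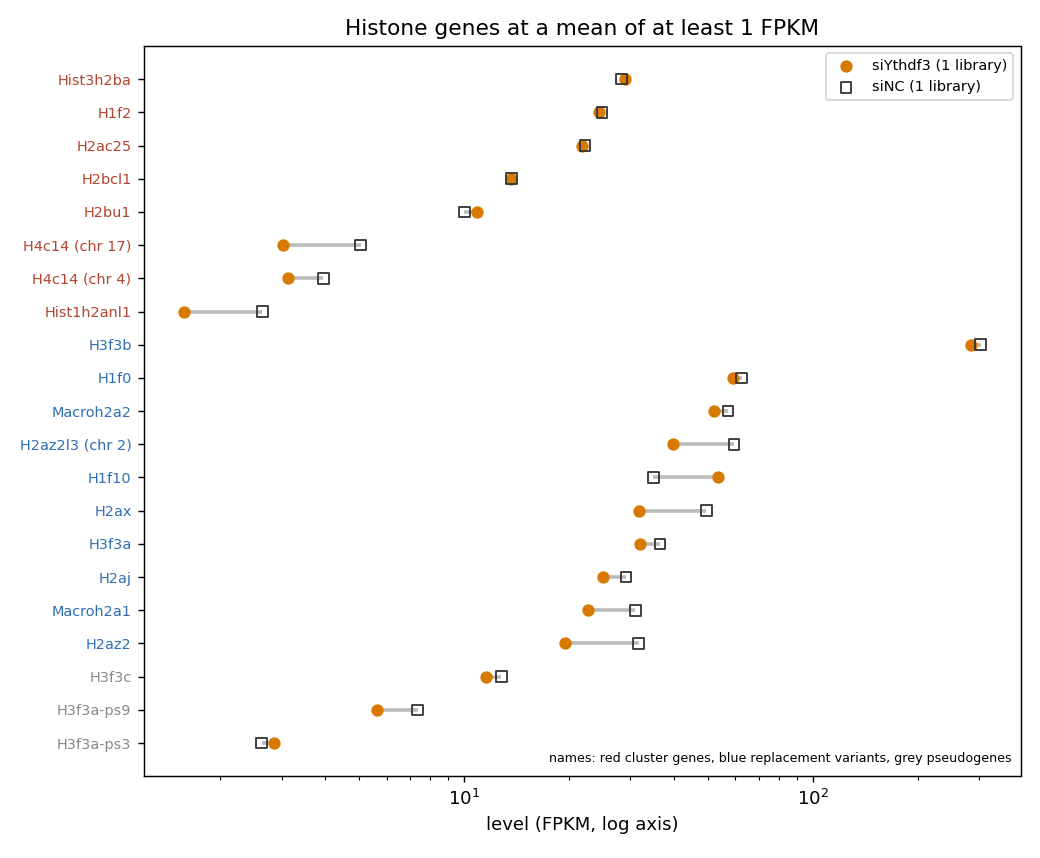
Level of the 21 histone rows that averaged 1 FPKM or more (FPKM, log axis), with 1 filled point for the siYthdf3 library and 1 open square for the siNC library. H3f3b stands highest at 284 and 303 FPKM, the points of Hist3h2ba, H1f2, H2ac25 and H2bcl1 nearly coincide, and H1f10 is the variant with the siYthdf3 point to the right.

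The region just before the start of a gene is shown for 6 members, those with the lowest and highest ratios among the variants (H2az2, H2ax and H1f10) and abundant members whose libraries were close (H1f2, H2ac25 and H3f3b). Each line holds 150 bases up to the annotated start, read along the gene's strand from RefSeq on GRCr8. They lie at chr14:85526069-85526218 (minus strand), chr8:53568568-53568717 (plus), chr4:121998898-121999047 (minus), chr17:41820454-41820603 (minus), chr10:44233133-44233282 (plus) and chr10:101757637-101757786 (minus). Capitals mark matches on either strand to CCAAT (the box that NF-Y binds), to TATAA or the related letters TATATA, and to AAACACAA (the H1 box of linker histone genes), ATGCAAAT (the octamer of H2B genes), TTTGAA (the cell cycle homology region of many G2 and mitotic genes), and also to TTTGGCGC and, of the same E2F type, TTTCCCGC. Matches of different kinds can overlap.
H2az2: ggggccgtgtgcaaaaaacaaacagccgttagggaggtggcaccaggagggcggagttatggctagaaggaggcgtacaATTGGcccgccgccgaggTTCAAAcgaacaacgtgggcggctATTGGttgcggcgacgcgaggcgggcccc
H2ax: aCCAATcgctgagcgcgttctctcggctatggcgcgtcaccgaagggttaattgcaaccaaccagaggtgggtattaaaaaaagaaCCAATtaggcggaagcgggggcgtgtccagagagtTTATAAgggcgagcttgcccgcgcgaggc
H1f10: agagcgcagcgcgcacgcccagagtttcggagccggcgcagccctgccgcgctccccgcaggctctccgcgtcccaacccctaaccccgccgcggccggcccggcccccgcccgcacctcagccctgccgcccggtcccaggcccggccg
H1f2: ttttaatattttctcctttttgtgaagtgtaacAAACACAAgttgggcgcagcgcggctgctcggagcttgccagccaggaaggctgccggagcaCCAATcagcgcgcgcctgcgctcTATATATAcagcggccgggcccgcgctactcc
H2ac25: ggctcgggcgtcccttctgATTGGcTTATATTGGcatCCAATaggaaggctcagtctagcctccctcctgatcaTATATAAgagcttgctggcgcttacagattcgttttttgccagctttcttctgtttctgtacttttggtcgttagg
H3f3b: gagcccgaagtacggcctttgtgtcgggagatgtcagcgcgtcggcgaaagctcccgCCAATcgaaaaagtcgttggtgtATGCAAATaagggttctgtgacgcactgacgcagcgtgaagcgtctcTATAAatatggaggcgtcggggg

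The searched letters differ between these windows. H1f2 carries the H1 box 117 bases before the start, and H1f4 and H1f5 carry it 118 and 117 bases before theirs, while 0.834% of all 33469 promoters have it in the same window. H2az2 is the only one of 19 searched members with TTTGAA, 53 bases before the start on the opposite strand, and 9.13% of all promoters have it. CCAAT was found in 14 of the 19 against 23.5% of all promoters, TATAA in 10 against 15.2%, TATATA in 6 against 3.16%, and ATGCAAAT in 3, H3f3b, H2bu1 and H2bc18, against 0.899%. TTTGGCGC and TTTCCCGC were in none of the 19 windows, and in 0.266% and 0.529% of all promoters. The H1f10 window holds none of these letters. The 19 are the rows with a promoter matched by symbol and chromosome, out of 30 that averaged 1 FPKM or more or had at least 20 reads over both libraries. A match describes the letters and is not evidence of binding.

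H3.3, the replacement form of H3, is encoded by H3f3a and H3f3b, which make the same protein. H3f3b (ENSRNOG00000006532, chromosome 10, 101256480 to 101258709, minus strand) was the most abundant member in both libraries, at 284 FPKM in siYthdf3, against 303 FPKM in siNC. Its ratio was 0.937 (counting interval 0.909 to 0.966), from 10091 and 7340 reads. H3f3a (ENSRNOG00000003220, chromosome 13, 92533298 to 92544908) was at 32.0 FPKM in siYthdf3, against 36.5 FPKM in siNC, or 0.876 times as much (counting interval 0.813 to 0.945). H3f3b thus made up 89.9% of the H3.3 FPKM in siYthdf3 and 89.2% in siNC. The difference in H3f3b was small on any scale used: its log2 ratio was -0.09, and -0.04 after rescaling to TPM. The 3 H3.3 pseudogene rows above 1 FPKM, H3f3c, H3f3a-ps9 and H3f3a-ps3, had log2 ratios of -0.14, -0.36 and 0.10, and all 3 intervals include 1. H3f3a and such copies share sequence and how counting treated shared reads is not stated, so these rows and H3f3a are uncertain.

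The H2A variants, H2A.X, H2A.Z and H2A.J, summed to 117 FPKM in siYthdf3, against 170 FPKM in siNC, and the median log2 ratio of the 4 rows above 1 FPKM was -0.61. H2ax (ENSRNOG00000010386, chromosome 8, 44671786 to 44673239, plus strand) was at 31.8 FPKM in siYthdf3, against 49.6 FPKM in siNC. The ratio was 0.641 (counting interval 0.588 to 0.698), from 1043 and 1109 reads, and the log2 ratio was -0.63. H2az2 (ENSRNOG00000052275, chromosome 14, 81293299 to 81312144, minus strand) encodes a form of H2A.Z, a variant found at promoters and enhancers. This gene was at 19.5 FPKM in siYthdf3, against 31.7 FPKM in siNC. It had the lowest log2 ratio of the 21 members, -0.69, with a ratio of 0.615 (counting interval 0.566 to 0.667). The H2az2 row overlaps 6303 bases of Ppia on the opposite strand, which was at 413 FPKM in siYthdf3, against 459 FPKM in siNC, and whether counting used strand is not stated. The log2 ratio of Ppia was -0.15.

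A row on chromosome 2 that the table calls H2az2l3 (ENSRNOG00000010306, 226355708 to 226358485, plus strand) was at 39.7 FPKM in siYthdf3, against 59.5 FPKM in siNC, or 0.668 times as much (counting interval 0.622 to 0.716). In the table it is followed by Dnajb14, Lamtor3 and Dapp1, the order that follows H2az1 in RefSeq, where H2az2l3 lies on chromosome 18. The table's symbol is kept here. The table also has a row of that name on chromosome 18, with 7 reads in each library. Together H2az2 and the chromosome 2 row summed to 59.2 FPKM in siYthdf3, against 91.1 FPKM in siNC. H2aj, a variant close to canonical H2A, was at 25.1 FPKM in siYthdf3, against 29.2 FPKM in siNC, and its interval of 0.701 to 1.06 includes 1.

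MacroH2A carries a large domain beside its histone fold and is associated with silent chromatin. Macroh2a1 (chromosome 17, 8479372 to 8542072, plus strand) was at 22.7 FPKM in siYthdf3, against 31.0 FPKM in siNC, or 0.730 times as much (counting interval 0.701 to 0.760), on 4929 and 4600 reads. On the log2 scale this was -0.45, and -0.55 after the table's trend with gene length was removed, since this row is 9634 bases long and long genes had higher ratios. Macroh2a2 was at 52.0 FPKM in siYthdf3, against 57.2 FPKM in siNC, or 0.909 times as much (counting interval 0.854 to 0.969). Both macroH2A genes were lower, and the intervals of the pair do not overlap. Macroh2a1 made up 30.4% of the macroH2A FPKM in siYthdf3 and 35.2% in siNC.

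Among linker histones, H1f10 was higher and H1f0 slightly lower in siYthdf3. H1f10 (ENSRNOG00000027722, chromosome 4, 120440870 to 120441448, minus strand), which encodes H1.10, a linker histone outside the clusters, was at 53.6 FPKM in siYthdf3, against 34.9 FPKM in siNC. The ratio was 1.54 (counting interval 1.34 to 1.76), from 701 and 311 reads, and the log2 ratio of 0.61 was the highest among the 21 members. It was the third most abundant member in siYthdf3 and the seventh in siNC. H1f0 was at 59.1 FPKM in siYthdf3, against 62.5 FPKM in siNC, or 0.946 times as much (counting interval 0.897 to 0.997). H1f2, the cluster gene for H1.2, was at 24.4 FPKM in siYthdf3, against 24.9 FPKM in siNC. Of the FPKM summed over all H1 rows, H1f10 thus held 38.6% in siYthdf3 and 28.0% in siNC, H1f0 42.6% and 50.2%, and H1f2 17.6% and 19.96%.

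**Figure D2:**
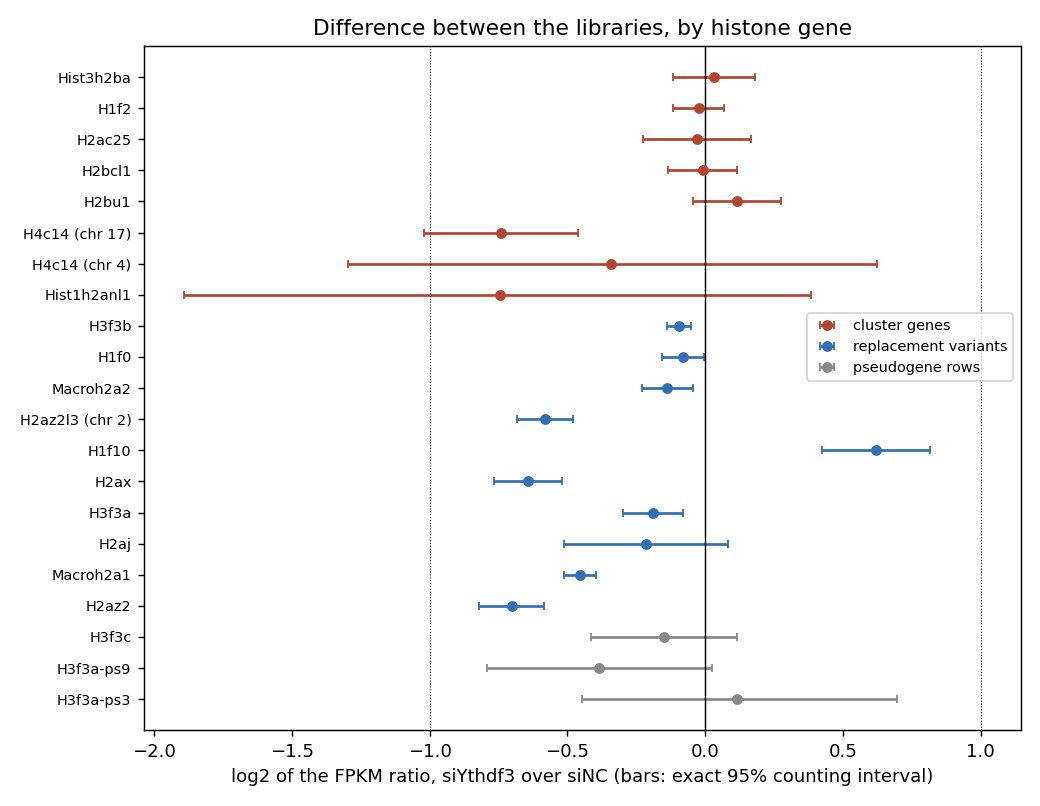
Log2 of the FPKM ratio, siYthdf3 over siNC, of the 21 histone rows that averaged 1 FPKM or more, with no pseudocount, and bars for the exact 95% counting interval, which do not show the spread between samples. Dotted lines mark 2-fold. Of the 10 variants, 8 bars lie below 0 and H1f10 above it, while of the 8 cluster genes only the bar of the H4c14 row with 2957 bases on chromosome 17 lies away from 0.

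Counting intervals lay below 1 for 9 of the 21 members and above 1 for 1, where 22.2% and 20% of all rows had them. Of these, 8 below and the 1 above were among the 10 variants. The variants are abundant, which narrows their intervals, so this count depends on level as well as on the size of the difference. It also depends on the scale, since the intervals use assigned reads and were not recomputed on another. After rescaling to TPM, the log2 ratios of H1f0, H3f3b and Macroh2a2 were -0.03, -0.04 and -0.09, from -0.08, -0.09 and -0.14. Over all 15 variant rows, the summed FPKM was 620 in siYthdf3 and 696 in siNC, a ratio of 0.891. Without H3f3b, the ratio was 0.856. The 5 variant rows under 1 FPKM, H1f6 and H1f7 of the germ line, H3f3bl2, H2az2l1 and the H2az2l3 row on chromosome 18, had 20 reads in siYthdf3 and 17 in siNC in all. The fourth pseudogene, H2az1-ps1, had 14 reads in siYthdf3 and 11 in siNC.

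The cluster genes with the highest FPKM had nearly the same level in both libraries. H1f2 (ENSRNOG00000067441, chromosome 17, 41388477 to 41392635, minus strand) had a ratio of 0.983 (counting interval 0.922 to 1.05), from 2296 reads in siYthdf3 and 1591 in siNC. The 3 rows of the small cluster on chromosome 10, 2 for H2B and 1 for H2A, did likewise. Hist3h2ba was at 28.9 FPKM in siYthdf3, against 28.3 FPKM in siNC, H2ac25 at 21.8 FPKM in siYthdf3, against 22.2 FPKM in siNC, and H2bu1 at 10.9 FPKM in siYthdf3, against 10.03 FPKM in siNC. Their ratios were 1.02, 0.979 and 1.08, and all 3 intervals include 1. H2bcl1, an H2B row of 4156 bases on chromosome 17, was at 13.6 FPKM in siYthdf3, against 13.7 FPKM in siNC, with a ratio of 0.994 (counting interval 0.911 to 1.08). The H1f2 and H2bu1 rows are also long, at 4159 and 3414 bases. Transcript ends could not be read, so whether these rows count stem loop or polyadenylated messenger RNA is unknown.

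Overlaps limit some of these rows. H2bcl1 shares 10991 bases with a transcript on the opposite strand, AC130391.3, at 21.5 FPKM in siYthdf3, against 21.8 FPKM in siNC, and H2ac25 and H2bu1 overlap each other on opposite strands by 2610 bases. In all, 6 of the 8 cluster rows above 1 FPKM and 2 of the 10 variant rows overlap another row. The 2 cluster rows without an overlap were Hist3h2ba and the H4c14 row on chromosome 4.

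The other cluster genes above 1 FPKM were low and had lower ratios. An H4c14 row (ENSRNOG00000054017, chromosome 17, 42480313 to 42485370, plus strand), for histone H4, was at 3.02 FPKM in siYthdf3, against 5.05 FPKM in siNC. Its ratio was 0.599 (counting interval 0.493 to 0.726), from 202 and 230 reads, with a log2 ratio of -0.66. The H4c14 row on chromosome 4 was at 3.12 FPKM in siYthdf3, against 3.96 FPKM in siNC on 22 and 19 reads, with an interval of 0.408 to 1.54. Hist1h2anl1, an H2A row next to the first of these, was at 1.58 FPKM in siYthdf3, against 2.65 FPKM in siNC on 14 and 16 reads, with an interval of 0.270 to 1.30. So, of the 8 cluster genes, the interval of the first H4c14 row alone excludes 1.

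The remaining 33 cluster rows had a mean under 1 FPKM. Each had between 0 and 69 reads in siYthdf3 and between 0 and 30 reads in siNC, and 25 of them had fewer than 20 reads over both libraries. No read was listed for 3 rows in siYthdf3 and for 5 rows in siNC. A count of 0 allows up to 3 reads, which for a gene of 1 kilobase is 0.133 FPKM in siYthdf3, against 0.195 FPKM in siNC. These rows include H1f1, H1f4 and H1f5, all 8 rows for replication-dependent H3 and 7 of the 9 for H4. The median length was 777 bases for these 33 rows and 2193 bases for the 8 above 1 FPKM, although Hist1h2anl1 and the H4c14 row on chromosome 4, at 393 and 312 bases, are short. The sources used here do not say whether the library kit selected poly(A) tails, and stem loop messenger RNA has none, so a low level of these rows does not measure how much of it the cells held.

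Pooled, the 33 low rows had 329 reads in siYthdf3 and 218 in siNC, 0.00146% and 0.00142% of the assigned reads, and a ratio of 1.03 (counting interval 0.864 to 1.23). A difference of these rows as a group was not detectable at this depth. Families follow the symbol, so H4f3, with 33 reads in siYthdf3 and 27 in siNC, is counted with H4. Its RefSeq synonym is an H1 symbol, which makes the H1 and H4 pools uncertain. By family, the pooled ratio was 0.730 for H1 (30 and 28 reads), 1.08 for H2A (62 and 39), 1.55 for H2B (66 and 29), 1.13 for H3 (96 and 58) and 0.799 for H4 (75 and 64), and all 5 intervals include 1. Summed as FPKM, which gives short rows the same weight as long ones, the 33 rows had a ratio of 0.903, the H2B rows one of 0.854 and the H3 rows one of 0.912, so the direction of all 3 depends on the weighting. A split by chromosome, which was not planned, gave counting intervals for chromosomes 17 and 2 that do not overlap when pooled by reads. They cover counting error alone, and a difference between the chromosomes was not tested. The 28 rows on chromosome 17 had a pooled ratio of 0.824 (counting interval 0.664 to 1.02), from 191 and 158 reads. The 5 rows on chromosome 2 had one of 1.57 (counting interval 1.15 to 2.16), from 138 and 60 reads. Summed as FPKM, the ratios were closer, at 0.854 on chromosome 17 and 1.08 on chromosome 2.

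On chromosome 2 most of the reads lay in 2 long rows, which were picked with their values known. H2bc18, an H2B row of 3196 bases (183838334 to 183841529, plus strand), had 56 reads in siYthdf3 and 14 in siNC, equal to 0.776 FPKM in siYthdf3, against 0.285 FPKM in siNC. Its ratio was 2.73 (counting interval 1.498 to 5.30). An H3c13 row of 2540 bases (183795504 to 183809469, minus strand) had 69 reads in siYthdf3 and 30 in siNC, or 1.57 times as much (counting interval 1.01 to 2.49). It lies within a row on the opposite strand, ENSRNOG00000062927, at 1.97 FPKM in siYthdf3, against 1.54 FPKM in siNC. The other 3 rows on chromosome 2 had 13 reads in siYthdf3 and 16 in siNC, a pooled ratio of 0.554 (counting interval 0.245 to 1.23). H2bc18 and this H3c13 row were the only ones of the 33 whose intervals exclude 1. Among all rows that averaged 1 FPKM or more, 20% had intervals above 1 and 22.2% below. The share among rows under 1 FPKM was not counted. Of the other low cluster rows, 6 had at least 20 reads over both libraries, all on chromosome 17. Hist1h2ao, for H2A, had 21 reads in siYthdf3 and 9 in siNC, and its interval ran from 0.698 to 3.94. H4f3 had 33 reads in siYthdf3 and 27 in siNC, H1f5 19 and 15, H1f4 9 and 12, an H4c14 row 20 and 15, and an H3c13 row that starts at the same base, 41369308, had 14 and 16. With so few reads, none of these 6 separated the libraries.

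**Figure D3:**
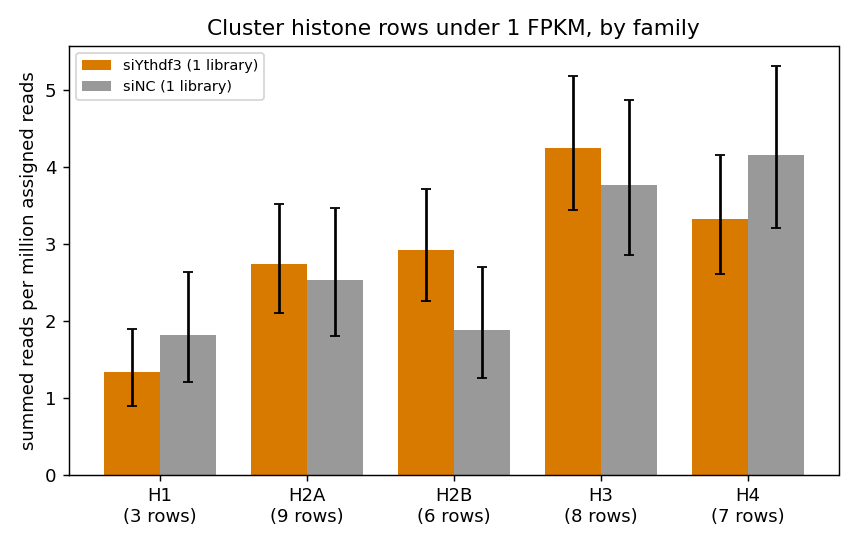
Reads of the 33 cluster histone rows with a mean under 1 FPKM, summed by histone family and scaled to the assigned reads of each library, with exact 95% counting intervals as bars, in the siYthdf3 library (left of each pair) and the siNC library (right). The bars of the pair overlap in all 5 families. H4f3 is counted with H4 by its symbol.

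Genes that make or place histones were described with lists of their own. Of 21 measured genes of histone messenger RNA processing and transcription, 17 had a log2 ratio below 0, against 51.9% of all rows. Their median was -0.14, with 12 intervals below 1 and 0 above, where 22.2% and 20% of all rows had them. Slbp, the protein that binds the stem loop of histone messenger RNA, was at 30.7 FPKM in siYthdf3, against 45.3 FPKM in siNC, a log2 ratio of -0.55. Npat, the coactivator of histone cluster transcription, was at 5.43 FPKM in siYthdf3, against 5.54 FPKM in siNC, with an interval of 0.875 to 1.097. Mtbp was the 1 gene of this list past 1.5-fold, at -0.73, where 3.95% of all rows were that much lower. It takes part in replication origin firing and is counted here only because the list was fixed with it.

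The 30 measured histone chaperones had a median log2 ratio of -0.14, with 18 intervals below 1 and 7 above, where 22.2% and 20% of all rows had them. At 1.5-fold, 3 of the 30 were lower in siYthdf3 and 0 higher, against 3.95% and 2.41% of all rows. The 3 were Hjurp, the chaperone of the centromeric H3 variant, at -0.67, Chaf1b, a subunit of the assembly factor that works behind the replication fork, at -0.65, and Asf1b, which hands over new H3 and H4, at -0.60. The H3.3 chaperones, added to the named genes with their values known, lay on both sides of 0. Hira was at -0.16 and the other members of its complex, Ubn1, Ubn2 and Cabin1, at 0.09, 0.29 and 0.11, while Daxx was at -0.16 and its partner Atrx at 0.41. Cenpa, the centromeric H3 variant that the symbol rule does not take in, was at 1.41 FPKM in siYthdf3, against 2.90 FPKM in siNC, a log2 ratio of -0.83.

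Genes of the cell cycle and markers of other cells differed between the same libraries. All 32 measured S phase genes had intervals below 1, where 22.2% of all rows had them. Their log2 ratios were -1.62 to -0.15, with a median of -0.73 and a summed level of 429 FPKM in siYthdf3, against 693 FPKM in siNC. Mcm3 of the replication helicase was at -1.62, Cdk2 at -1.42, Uhrf1, which reads hemimethylated DNA, at -1.16, E2f8 at -1.08, Tk1 at -1.03 and Gins1 at -0.92. All 20 mitosis genes had intervals below 1, against the same 22.2% of all rows. Their median was -0.95 and their summed level 272 FPKM in siYthdf3, against 544.0 FPKM in siNC. Nusap1 was at -1.21, Top2a at -1.15, Ccnb1 and Aurka at -1.08 each, and Tpx2 and Cdc20 at -1.06 each. The part of cell division in the histone differences was not tested.

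Of the 10 radial glia and progenitor markers, 7 intervals lay below 1 and 0 above, where 22.2% and 20% of all rows had them. Abundant genes have narrower intervals, so such counts depend on level too. The median was -0.30 and the summed level 1441 FPKM in siYthdf3, against 2107 FPKM in siNC. The 3 progenitor markers at least 1.5-fold lower were Eomes at -1.96, Vim at -0.99 and Nes at -0.87, where 3.95% of all rows were. Nearest 0 were Hes1 at -0.02, Slc1a3 at -0.04 and, in the other direction, Hes5 at 0.10. Vim, at 357 FPKM in siYthdf3, against 708 FPKM in siNC, and Fabp7, at 862 against 1105, held most of both sums. The sum thus follows these abundant genes more than the list. The 10 neuron markers had a median of 0.26, with 8 intervals above 1 and 1 below, against 20% and 22.2% of all rows. Of these markers, 0 were past 1.5-fold. The 2 with the largest differences were Nefm at 0.51 and Map2 at 0.39. Their list summed to 1213 FPKM in siYthdf3, against 1060 FPKM in siNC. Over 6 astrocyte markers the median was -0.11, with Gfap at 1.04, Slc1a2 at 0.80 and Gja1 at -0.68. For the oligodendrocyte lineage the median was -0.35 over 5 measured markers (Olig2 at -0.82, Olig1 at -0.77), for microglia -0.72 over 3 (Tyrobp at -1.71, Aif1 at -0.72 and, in the other direction, P2ry12 at 0.36) and for fibroblasts and meninges -0.64 over 4 (Col3a1 at -0.80, Col1a2 at -0.70, Pdgfrb at -0.59). The whole astrocyte list summed to 176 FPKM in siYthdf3, against 109 FPKM in siNC, of which Gfap alone held 141 and 68.2. Of the 6 astrocyte markers, 3 had a log2 ratio above 0 and 3 below, so the sum follows Gfap and not the list. For oligodendrocytes the whole list summed to 16.3 FPKM in siYthdf3, against 27.3 FPKM in siNC. The sums were 3.68 against 7.61 for microglia and 6.29 against 10.1 for fibroblasts. The 5 endothelial markers had a mean under 1 FPKM each and summed to 0.578 FPKM in siYthdf3, against 0.583 FPKM in siNC. The part of these cells in the histone differences was not tested, and in bulk RNA fewer cells of a type cannot be told apart from less RNA per cell.

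**Figure D4:**
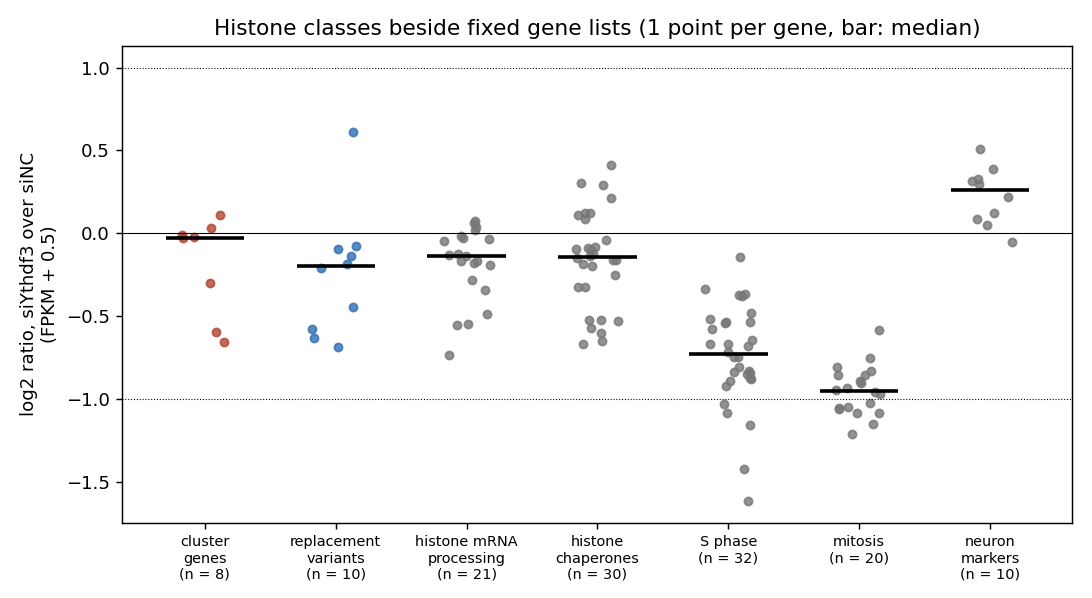
Log2 ratio of (FPKM + 0.5), siYthdf3 over siNC, with 1 point per gene that averaged 1 FPKM or more and a bar at the median, for the histone cluster genes, the replacement variants and 5 gene lists. The medians are -0.03 and -0.20 for the histone classes, -0.14 for histone messenger RNA processing and for histone chaperones, -0.73 for S phase, -0.95 for mitosis and 0.26 for neuron markers.

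In composition, replacement variants made up 84.0% of the FPKM summed over both classes in siYthdf3 and 85.0% in siNC, and cluster genes 16.02% and 15.01%. The summed level of the 41 cluster rows was 118 FPKM in siYthdf3, against 123 FPKM in siNC, a ratio of 0.962. These shares count transcripts as the libraries captured them and not protein. Symbols are a further limit. In the table, 6 histone symbols stand on more than 1 row and cover 18 of the 60 rows, among them H3c13 on 5 rows and Hist1h4m on 4, and copies of the cluster genes are near-identical in sequence, so the split of reads between them is uncertain. The H4f3 row, at 0.340 FPKM in siYthdf3, against 0.408 FPKM in siNC, has an H1 symbol, Hist1h1d, as its RefSeq synonym.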

How the data were processed

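RNA of E18 rat cortical neurons was measured in 1 siYthdf3 and 1 siNC library. Per the labels' protocols, cDNA molecules were tagged with identifiers of 12 random bases and sequenced as paired reads of 150 bases. Per the submitters' processing notes, StringTie 2.1.4, STAR 2.7.6a, edgeR 3.40.2, Subread 1.5.1 with featureCounts, and fastp 0.23.2 were used, with no role given. The sources used here state neither the genome build, annotation release or strand setting nor any collapsing by identifier. Per the file headers, the authors deposited 1 FPKM value per gene and library beside coordinates and lengths. Whole reads were recovered from FPKM and length in 100% of cases, to within 0.05 reads, and used for intervals.

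Log2 ratios were log2 of siYthdf3 over siNC after adding 0.5 FPKM, over rows that averaged 1 FPKM or more. The fold rules were 2-fold and 1.5-fold. The text names members that averaged 1 FPKM or had 20 reads, and from each list up to 6 genes past 1.5-fold or else the 2 largest differences, plus Ythdf3, Cenpa, Slbp and Npat. Outside this rule, and with values known, it names H1f1, H1f6, H1f7, H3f3bl2, H2az2l1, the H2az2l3 row on chromosome 18, P2ry12, Hes1, Hes5, Slc1a3, Fabp7, Hira, Ubn1, Ubn2, Cabin1, Daxx and Atrx, plus Ppia and other rows that overlap or neighbour a member. For a listed symbol on several rows the highest was used. Members and lists were chosen with earlier results of these data known. H2bu1 was placed among cluster genes by its RefSeq synonym, and pseudogenes were set apart by RefSeq type, after values were seen. The calculation was tested on simulated counts that held counting error alone, so this test cannot speak to the spread between samples. Python 3.11.15, numpy 2.4.6, pandas 2.3.3, scipy 1.17.1 and matplotlib 3.10.9 were used.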

Additional observations from a re-analysis of the deposited data

How the results depend on the processing

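Among rows that averaged 1 FPKM or more, none was 2-fold apart with pseudocounts of 0.1 or 1 FPKM or a mean of at least 5 FPKM. The same held after rescaling to TPM or to the median of all genes, and with the length trend removed. It also held without the mitochondrial and 20 most abundant genes. With no filter or at least 20 reads no member was 2-fold apart either, but both settings kept the 0.5 FPKM pseudocount. That pulls low rows toward no difference, so neither setting decides the question for them. H2bc18, with 56 reads in siYthdf3 and 14 in siNC, had a ratio of 2.73 without a pseudocount. Past a 1.5-fold rule were 5 members. Of these, H2ax and Hist1h2anl1 were not after the length trend was removed, nor Hist1h2anl1 with a pseudocount of 1 FPKM. The variant median stayed below 0 under each of these settings, between -0.20 and -0.13. The cluster median was 0.02 under TPM and -0.11 without a filter, so no direction is given for it. The class difference ranged from 0.07, without rows that overlap another row, to 0.19 at a mean of at least 5 FPKM. It was 0.08 without a filter and 0.09 after the length trend was removed. The ratio of summed variant FPKM was 0.922 under TPM, which scales all genes alike, and 0.856 without H3f3b. The pooled ratio of low cluster rows was 0.942 without the row with the most reads and 1.04 without overlapping rows. Of 126 single-gene alternatives, 123 lay within the gene's counting interval. Length trend, overlap, H2bu1, pseudogene and summed-level omissions were chosen after seeing the data. The split of low cluster rows by chromosome was not planned, and the rows singled out on chromosome 2 were picked with their values known. No paired analysis was possible because each group has 1 library. Depth limits the rows under 20 reads.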
